A study of Mus musculus with 48 samples.

Results

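The comparison concerns lung epithelial cells of bleomycin-injured mice that received 3G9, an antibody against the integrin αvβ6, set against mice that received the control antibody Axum8. Its members are the 8 epithelial libraries of bleomycin-exposed mice in batch S151, taken by their labels for compartment, exposure, treatment and batch, out of 48 libraries from 24 mice in the series. Each arm held 4 mice, 1 female and 3 male. The 3G9 mice were 218, 219, 226R and 228, and the control mice 204, 206, 208R and 225. All 8 carried a RiboTag allele, which places an HA tag on ribosomes of the chosen cells, so that an anti-HA precipitation recovers the RNA those ribosomes carry. The sources used here do not give the driver that switched on the tag, the strain and age of the mice, the doses or the interval after bleomycin. Epithelial libraries of 3 saline mice of the same batch, also labelled Axum8, and whole lung libraries from these mice served as reference levels. The labels give the same anti-HA precipitation for whole lung libraries and do not say how their preparation differed.

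The integrin αvβ6 is made almost only by epithelial cells and becomes more abundant on injured lung epithelium. It binds the latent form of TGFβ in the matrix and releases the active cytokine, which halts epithelial growth and drives nearby fibroblasts to deposit collagen. Antibodies against it reduce TGFβ signalling close to the epithelium and lessen fibrosis in bleomycin-injured mice. The labels and the series title place 3G9 in the study as the arm for TGFβ inhibition, so the comparison asks what loss of that activation changes in RNA of the injured epithelium.

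Genes are given by Ensembl identifier, because the count table does not pair identifiers with symbols and the reference table used here matched 0 of its 42548 identifiers. Levels of the integrin subunits, of TGFβ and of cell type markers could therefore not be read, and the epithelial label was not checked against marker genes. It was set against a group of 1328 genes at least 8-fold depleted in epithelium relative to whole lung in saline mice of batch S135. These are other mice, with the treatment label vehicle. These genes held 0.509% ± 0.170 of counts in the 3G9 epithelial libraries and 0.513% ± 0.188 in the control ones, against 8.85% ± 1.05 and 8.64% ± 0.875 in the whole lung of these animals (SD, n = 4 each). The share in 3G9 epithelial libraries ran from 0.366% to 0.747% and that in control ones from 0.377% to 0.792%. The arms overlapped in this share, and every epithelial library lay far under the whole lung range. The group was itself chosen by the compartment labels of S135. The share therefore compares labels between batches and cannot identify the cell type.

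The 8 libraries held between 24751240 and 36057881 counts. Control mouse 206 had the fewest counts and the fewest genes with a count, 16879 against 18818 to 20770 in the other 7. It also stood apart in the pattern of its levels. On the first principal component, which held 43.4% of the variance, it lay at 104, and the other mice lay between -32.6 and 0.929. Its median correlation with the other control libraries was 0.924, against 0.963 to 0.966 for those 3 control mice. The second component held 13.7% of the variance and mixed the arms, with 3G9 mice 218 and 219 and control mouse 208R at the top. Membership of an arm accounted for 11.2% of the spread along the first component and 2.34% along the second. Along the third component, which held 12.1% of the variance, it accounted for 5.29%. Along the fourth, which held 9.77%, it accounted for 54.6%, the largest share among the components examined. Values without mouse 206 are given below for the count of genes at an unadjusted p under 0.05, the group medians and the compartment test.

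**Figure D1:**
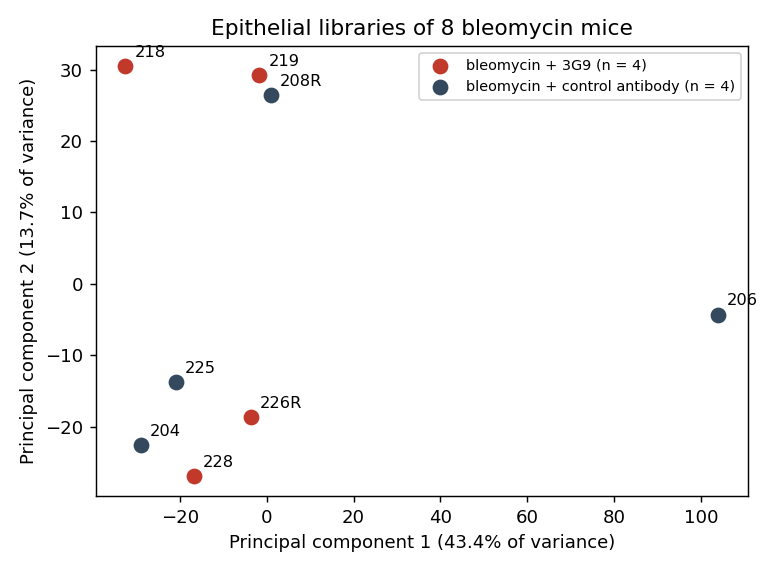
Principal components 1 and 2 of log2 CPM in the 8 epithelial libraries, each point a mouse, with the share of variance on each axis. Control mouse 206 lies at 104 on the first component and the other 7 mice between -32.6 and 0.929, with the arms mixed.

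No gene passed the test between the arms. In the epithelium, 0 of 14976 genes tested had an adjusted p under 0.05 (0%, edgeR quasi-likelihood test with Benjamini-Hochberg adjustment), and the smallest adjusted p was 0.482, shared by 3 genes. At an unadjusted p under 0.05 there were 436 genes, 2.91% of those tested, where 748.8 would be the share of 5%. Of these, 187 were higher with 3G9 (1.25%) and 249 lower (1.66%). Limma voom with sample quality weights also called 0 genes, with 696 at an unadjusted p under 0.05. DESeq2 was run on all 24766 genes with a count and gave 22306 of them an adjusted p. It called 21, of which 10 were higher and 11 lower. All 19 of the DESeq2 calls that edgeR tested had an unadjusted p under 0.05 in edgeR and the same sign. As the fits share the same libraries, this is not independent support.

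How large a difference the libraries could show depended on the gene. The median standard error of a log2 fold change was 0.24, and the median size of the fold change itself was 0.16. For 10432 genes, 69.7% of those tested, the 95% interval of the fold change lay wholly inside a 2-fold change in either direction, each interval taken alone. Precision was lowest in genes of low level. Levels are CPM, counts scaled to the size of the library and between libraries by the TMM method. The interval lay inside 2-fold for 93.1% of the 7224 genes at 10 to 100 CPM and for 88.8% of the 1254 genes at 100 CPM or more. It did so for 54.9% of the 4659 genes at 1 to 10 CPM and for 1.69% of the 1839 genes under 1 CPM, where a 2-fold difference could mostly not be told from none. Without control mouse 206 the median standard error was 0.20, 582 of the same genes had an unadjusted p under 0.05, and 0 genes were called.

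**Figure D2:**
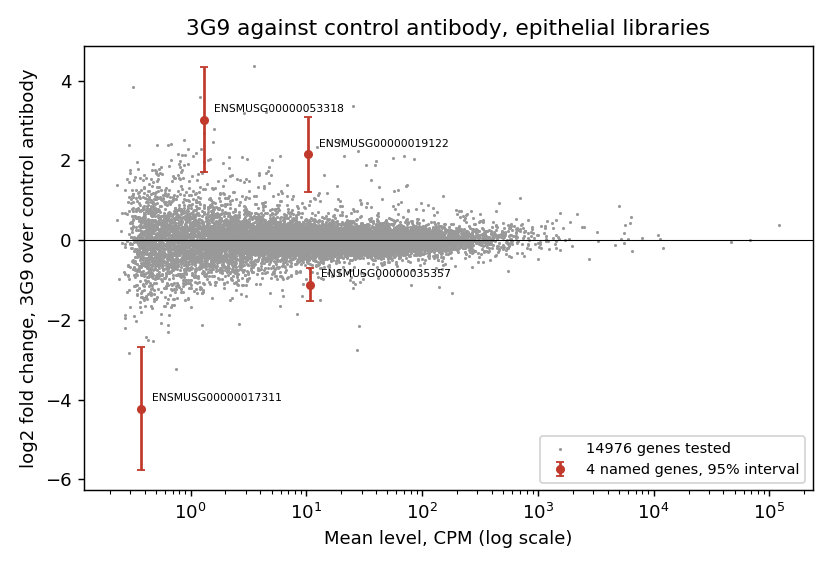
Log2 fold change of 3G9 over control antibody for each of 14976 genes against its level (geometric mean of the arm means, in CPM with a small constant added, log axis), with 4 genes marked by identifier and 95% interval. Fold changes spread widely at low levels and narrow towards 0 at high levels, and the 4 marked genes lie outside the main cloud at their level.

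Genes were ranked by p within each direction among those with a mean of at least 1 CPM in the higher arm. None of the genes named here passed in edgeR, and all 4 were among the 21 that DESeq2 called. Among the first 10 of each direction, arms did not overlap in 9 of the higher and 10 of the lower genes. Across all genes tested, arms did not overlap in 106 genes higher with 3G9 (0.708%) and 219 lower (1.46%). Because the rank by p favours genes whose arms separate, the count among the first 10 is a description and not support. Of those first 10 of each direction, 3 of the higher and 3 of the lower belonged to the genes depleted at least 2-fold in epithelium of S135 saline mice, and 2 of the higher and 0 of the lower to those enriched at least 2-fold. Of all genes tested, 15.5% were in the depleted and 10.5% in the enriched group.

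ENSMUSG00000035357 was lower with 3G9. It stood at 6.59 CPM in 3G9 mouse 218, 6.62 in 219, 8.21 in 226R and 7.37 in 228, and at 11.7 CPM in control mouse 204, 18.2 in 206, 17.3 in 208R and 15.8 in 225. All 4 mice with 3G9 lay under all 4 controls, with little spread inside the 3G9 arm. The means were 7.20 ± 0.764 CPM and 15.8 ± 2.86 CPM (SD, n = 4 each). On the log2 scale the fold change was -1.12 ± 0.18 (SE, edgeR adjusted p = 0.482). Saline mice of the batch had 10.4 to 21.1 CPM, which spans the control arm and lies over the 3G9 arm. In whole lung the gene stood at 21.5 ± 1.87 CPM with 3G9 and 35.1 ± 5.00 CPM in controls (SD, n = 4 each), again without overlap of the arms. The log2 value there was -0.70 ± 0.13 (SE, edgeR adjusted p = 0.351), and saline whole lung held 19.4 to 29.6 CPM.

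ENSMUSG00000017311 was also lower with 3G9, with at most 4 reads per library in that arm. Epithelial libraries of mice 218, 219, 226R and 228 held 3, 4, 1 and 0 reads of it, against 34 in control mouse 204, 43 in 206, 33 in 208R and 47 in 225. The arms did not overlap, and the controls were alike. The means were 0.0602 ± 0.0582 CPM and 1.22 ± 0.397 CPM (SD, n = 4 each). Its change on the log2 scale came to -4.22 ± 0.70 (SE, edgeR adjusted p = 0.482). Epithelial libraries of saline mice held 0 counts of it in all 3. This allows up to 0.0346 CPM over the group (a floor of 3 counts, for counting error only). That floor uses raw library sizes without the TMM scaling of the other levels. In whole lung it was rarer, with 4 counts over the 3G9 mice and 32 over the controls, and did not pass the filter on low counts.

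ENSMUSG00000053318 was higher with 3G9 and varied widely in that arm. It stood at 7.58 CPM in mouse 218, 3.28 in 219, 1.86 in 226R and 1.06 in 228, and at 0.330 CPM in control mouse 204, 0.450 in 206, 0.512 in 208R and 0.426 in 225. Every 3G9 mouse lay over every control, and mouse 218 alone held 329 of the 510 counts of its arm. The log2 fold change was 3.02 ± 0.59 (SE, edgeR adjusted p = 0.872), and without mouse 218 the gene was again higher, at 2.28. Saline mice had 0 to 1.12 CPM. In whole lung the level was higher, at 37.3 ± 34.7 CPM with 3G9 and 6.09 ± 1.39 CPM in controls (SD, n = 4 each). Mouse 218 was the highest there too, at 88.3 CPM, and mouse 228 the lowest of the arm, at 11.8 CPM. The fold change in epithelium minus that in whole lung was 0.45 on the log2 scale, with a 95% interval from -0.14 to 1.05.

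ENSMUSG00000019122 was also higher with 3G9. It stood at 27.9 CPM in mouse 218, 32.9 in 219, 13.4 in 226R and 11.7 in 228, and at 2.44 CPM in control mouse 204, 3.77 in 206, 8.004 in 208R and 5.36 in 225. The arms did not overlap, and inside the 3G9 arm mice 218 and 219 lay well over the other pair. The log2 fold change was 2.15 ± 0.43 (SE, edgeR adjusted p = 0.872). Saline mice had 2.53 to 4.25 CPM, inside the control range. In whole lung the gene was far more abundant, at 342 ± 97.5 CPM with 3G9 and 101.3 ± 67.1 CPM in controls (SD, n = 4 each), and the arms did not overlap. Saline whole lung held 18.4 to 24.1 CPM, under every control. The log2 value there was 1.76 ± 0.41 (SE, edgeR adjusted p = 0.437), and the difference between the compartments was 0.25, with a 95% interval from -0.53 to 1.03. For both genes higher with 3G9 and for ENSMUSG00000035357, the whole lung level exceeded the epithelial level in every mouse. For ENSMUSG00000017311 the whole lung level lay under the epithelial level in every control mouse. The part of RNA carried over from other cells in the epithelial values was not tested.

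**Figure D3:**
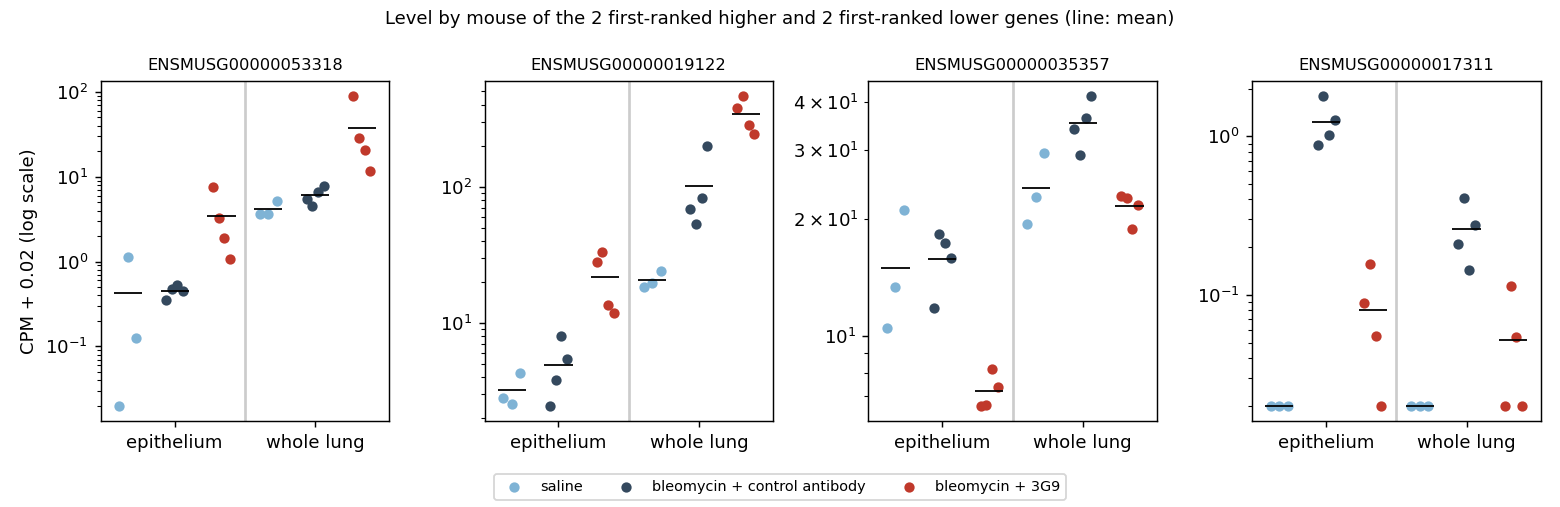
Levels of 4 genes in each mouse on a log axis of CPM with a small constant added, in epithelial and whole lung libraries of saline, control antibody and 3G9 mice, with lines at the means. In epithelium the 4 mice with 3G9 lie over the controls for ENSMUSG00000053318 and ENSMUSG00000019122 and under them for ENSMUSG00000035357 and ENSMUSG00000017311.

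The injury response was followed through genes ranked by their difference between bleomycin and saline in other mice. These mice carried the treatment label vehicle instead of Axum8. The bleomycin mice were male and the saline mice included a female, and the part of sex in these lists was not tested. In epithelium of batch S135, bleomycin (2 mice) against saline (3 mice) called 213 of 14182 genes (1.5%), 143 higher and 70 lower, and the 100 of each direction with the smallest p were followed in S151, so that the lower 100 include genes beyond the 70 that passed in S135. Genes higher after bleomycin in S135, by a median of 1.58 on the log2 scale, lay near the control level with 3G9. Their median log2 fold change between the arms was 0.0022, beside 0.0065 over all genes tested, with 50% positive, beside 51.1% over all. By mouse, the median of the group relative to the control mean was 0.26 in mouse 218, -0.078 in 219, 0.025 in 226R and -0.12 in 228, and the controls ran from -0.078 to 0.0087. The 3 saline mice lay at -1.42, -1.29 and -1.28. The 3G9 mice therefore lay around the controls and far from saline. None of the 100 genes was called, 3 were higher and 4 lower at an unadjusted p under 0.05 (3% and 4%, beside 1.25% and 1.66% over all genes tested). For 69 the 95% interval lay inside a 2-fold change, beside 69.7% over all. With mouse 206 left out, 2 were higher and 6 lower at an unadjusted p under 0.05 (2% and 6%, beside 1.75% and 2.18% over all). Leaving out 1 mouse at a time put the median between -0.053 (without 218) and 0.069 (without 206), on either side of 0.

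Genes lower after bleomycin in S135, with a median of -1.01 on the log2 scale, lay slightly higher with 3G9 as a group. Their median log2 fold change with 3G9 was 0.17, and 73% were positive. The group lay at 0.012 in mouse 218, 0.028 in 219, 0.17 in 226R and 0.49 in 228 relative to the control mean, and at 0.16 in control mouse 204, -0.14 in 206, 0.0071 in 208R and -0.017 in 225. Saline mice lay between 0.60 and 0.69. The arms overlapped, and mouse 228 alone approached the saline level. Without mouse 228 the median fold change was 0.044, so most of the shift rested on that mouse, and without mouse 206 it was again 0.17, with 68% positive. None of these 100 genes was called, with 3 higher and 1 lower at an unadjusted p under 0.05, 3% and 1% beside the same 1.25% and 1.66% over all genes. With mouse 206 left out, 10 were higher and 1 lower (10% and 1%, beside 1.75% and 2.18% over all), and none was called. The values of saline and 3G9 mice are both relative to the same control mice.

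The groups of genes that distinguish the compartments had medians close to 0. The 1574 tested genes at least 2-fold enriched in epithelium of S135 saline mice had a median log2 fold change of 0.059 with 3G9, with 61.6% positive, beside 51.1% over all genes tested. At an unadjusted p under 0.05, 26 were higher (1.65%) and 4 lower (0.254%), beside 1.25% and 1.66% over all. Without mouse 206 that median was 0.097, with 72.2% positive, and 54 were higher (3.43%) and 9 lower (0.571%), beside 1.75% and 2.18% over all. The 2319 tested genes depleted at least 2-fold had a median of -0.072, with 41.6% positive, 59 higher (2.54%) and 114 lower (4.92%), and a median of -0.070 without mouse 206. The 872 tested of the 8-fold depleted genes had a median of -0.087, or -0.067 without mouse 206, with 37 higher (4.24%) and 42 lower (4.82%). An interval inside a 2-fold change was found for 14.8% of them, beside 69.7% over all genes. No member of these groups was called, with or without mouse 206. With mouse 206 left out, the 2-fold depleted group had 53 higher (2.25%) and 116 lower (4.93%) at an unadjusted p under 0.05. The 8-fold depleted group then had 36 higher (4.02%) and 41 lower (4.58%). By mouse the arms overlapped in all 3 groups. In the 8-fold depleted group control mouse 208R lay at 0.48 and control mouse 204 at -0.34, a range wider than that of the 3G9 mice, which ran from -0.20 to 0.089. Without mouse 208R, which had the highest share of counts in these genes, the median fold change turned to 0.16 in the 8-fold and 0.014 in the 2-fold depleted group, and with all 8 mice limma voom with quality weights gave 0.047 in the 8-fold group, so the direction did not hold across these alternatives.

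**Figure D4:**
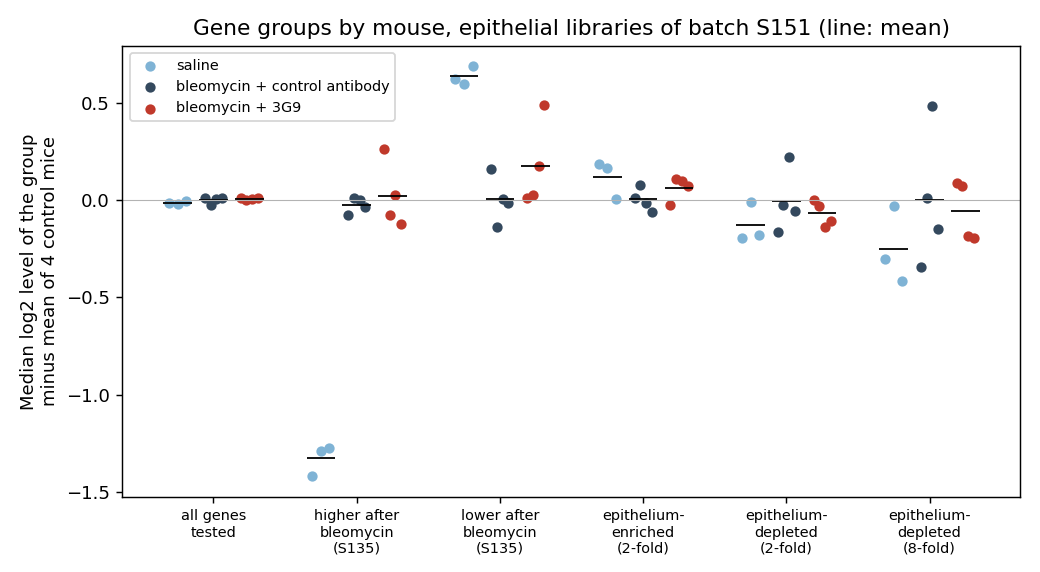
Median over the genes of each group of the log2 level (CPM plus 0.5) minus the mean of the 4 control mice, for each saline, control antibody and 3G9 mouse, with lines at the means. Genes higher after bleomycin lie between -1.42 and -1.28 in saline mice and between -0.12 and 0.26 with 3G9, around the controls.

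Epithelial and whole lung libraries of the same 8 mice allowed a test of whether the 3G9 effect differed between them. By its label whole lung includes the epithelium, so the test sets a part against the whole. It does not compare epithelium with the other cells of the lung. Of 17146 genes tested with the mouse as a block, 0 differed at an adjusted p under 0.05 (0%, edgeR quasi-likelihood test), and the smallest adjusted p was 0.582. At an unadjusted p under 0.05 there were 353 genes (2.06%), 182 with a fold change lying higher in epithelium and 171 lower, and 493 without mouse 206, when again 0 were called. Limma voom with the mouse as a block called 0, with 401 at an unadjusted p under 0.05. Whole lung libraries alone gave 0 calls among 16667 genes (0%) in the same kind of fit, with 969 genes at an unadjusted p under 0.05 (5.81%), and arms without overlap in 251 genes higher with 3G9 (1.51%) and 279 lower (1.67%). Over the 14760 genes tested in both, the median standard error was 0.18 in whole lung and 0.24 in epithelium.

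The first gene by p in this test was ENSMUSG00000061397. In whole lung it stood at 0.906 to 3.46 CPM with 3G9 and at 5.97 to 14.1 CPM in controls, and these arms did not overlap. In epithelium it stood at 5.69 CPM in mouse 218, 1.64 in 219, 3.44 in 226R and 5.84 in 228, and at 3.88 to 6.35 CPM in controls, and these arms overlapped. The log2 fold change was -0.27 ± 0.37 in epithelium and -2.38 ± 0.40 in whole lung, and their difference 2.07 ± 0.32 (SE, edgeR adjusted p = 0.582). Saline mice had more of it in whole lung, 22.9 to 60.6 CPM, and 2.64 to 19.3 CPM in epithelium.

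The other genes ranked by this test were rare in epithelium. ENSMUSG00000037169 stood at 0.0332 to 0.316 CPM with 3G9 and 1.37 to 2.41 CPM in control epithelium, without overlap, while saline epithelium held 0 to 0.821 CPM. In whole lung it stood at 1.09 to 2.73 CPM with 3G9 and 1.95 to 5.13 CPM in controls, which overlapped, and the difference of the fold changes was -2.41 ± 0.55 (SE, edgeR adjusted p = 1). ENSMUSG00000086825 held 19 counts over the 3G9 and 107 over the control epithelial libraries, beside 18.8 ± 5.10 and 24.01 ± 9.54 CPM in whole lung (SD, n = 4 each), a difference of -2.12 ± 0.45 (SE, edgeR adjusted p = 1). ENSMUSG00000016255 held 25 counts over the 3G9 and 1 over the control epithelial libraries, and 220 and 211 in whole lung, so its epithelial level rests on a few reads per library.

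**Figure D5:**
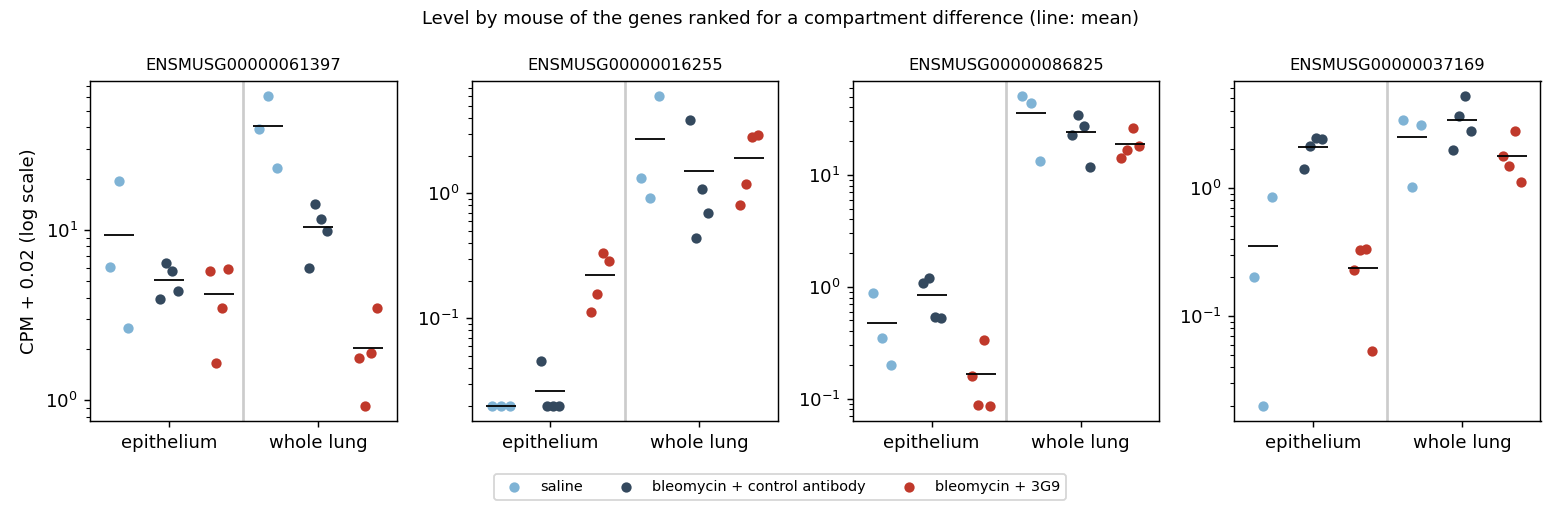
Levels of 4 genes in each mouse on a log axis of CPM with a small constant added, in epithelial and whole lung libraries of saline, control antibody and 3G9 mice, with lines at the means. For ENSMUSG00000061397 the arms overlap in epithelium and separate in whole lung, and for ENSMUSG00000037169 they separate in epithelium and overlap in whole lung.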

How the data were processed

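The authors deposited a table of whole-number read counts per Ensembl gene and library with no normalization. Alignment software and build are listed as STAR 2.5.2b and GRCm38 per the submitters' processing notes. The counting program and annotation: not given in the sources used here. Per the labels' protocols, libraries were 3' end libraries (Lexogen QuantSeq Forward) after anti-HA precipitation, whose counts do not scale with transcript length. Columns were matched to samples by mouse number and compartment letter, E read as epithelium and I as whole lung. The whole lung column of 3G9 mouse 218 carries an unexplained suffix.

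Counts were analysed in R 4.3.3 with edgeR 4.0.16 (quasi-likelihood test, TMM, filterByExpr, robust dispersions), on the 8 epithelial libraries alone. Standard errors are the fold change over the root of the F statistic. The compartment test used the 16 libraries of the 8 mice with the mouse as a block; the pairing comes from the labels, and a mouse's epithelial deviations from its arm mean correlated with those of its own whole lung library at 0.085 to 0.48, above its 3 arm mates in 8 of 8 mice. DESeq2 1.42.0 and limma 3.58.1 gave alternatives. The edgeR fits were run on simulated counts with known fold changes, the same dispersion for every gene and no outlying library. How they perform with a library such as that of mouse 206 was not tested. Libraries of an arm differed by at least 69.5 times the sampling variance, so none was counted as a duplicate.

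Genes to name were ranked by p within each direction, with a mean of at least 1 CPM in the higher arm (no minimum for the compartment test). As no identifier matched a symbol, 2 of each direction are named, and the fixed lists of symbols, cell type markers among them, could not be applied. The members and lists were chosen with earlier results of these data known, and the gene groups by compartment after the counts had been seen. In the epithelial comparison each library came from its own mouse, so its p-values measure the spread between mice; in the compartment test each mouse gave 2 libraries.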

Additional observations from a re-analysis of the deposited data

Results flagged for a closer look

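In 44 groups of 4 values examined (library measures and the levels of the genes named above, by arm), 4 held a sample whose gap to the rest passed Dixon's 95% critical value, where chance flags about 1 group in 20. Control mouse 206 had 24751240 counts in its epithelial library, the fewest of its arm. Control mouse 208R had 0.792% of its epithelial counts in the 8-fold depleted genes, over the other controls. The epithelial library of 3G9 mouse 218 had 48.3% of its counts in genes at least 2-fold enriched in epithelium, under the others of its arm. ENSMUSG00000016255 was at 0.0254 CPM, a single read, in the epithelium of control mouse 204 and at 0 in the other controls. With all other values at 0, any read passes, so this flag was fixed by that read and the chance rate does not apply to it.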

How the results depend on the processing

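The count of genes called was 0 in edgeR under other scalings (RLE, upper quartile), filters (at least 1 count, or a mean of at least 5 CPM), sets of libraries (11 with saline, 24 with batch) and with sex as a term, and 0 without each mouse in turn (337 to 652 genes at an unadjusted p under 0.05). The fit of 24 libraries took bleomycin mice labelled Axum8 or vehicle together as controls. Saline mice and mice of another treatment, KIRA8, were its further arms. DESeq2 called 21. Genes at an unadjusted p under 0.05 were 679 of 24766 in DESeq2 and 696 of 14976 in limma voom, beside 436 of 14976 in the main fit. They were 848 of 24766 with no filter beyond 1 count and 249 of 10501 with a mean of at least 5 CPM. As the numbers of genes tested differ, these counts do not compare directly. In the compartment test, the fit with no replicate block called 0 genes, against 0 with the block, and the other alternatives also called 0. The 4 genes named for epithelium kept their sign in every alternative that tested them: ENSMUSG00000035357 lay between -1.23 and -1.01, ENSMUSG00000017311 between -4.86 and -3.86, ENSMUSG00000053318 between 2.28 and 3.30 and ENSMUSG00000019122 between 1.87 and 2.497 on the log2 scale. DESeq2 called all 4 (largest adjusted p 0.000627). As the 4 genes were chosen by p in these same libraries, the kept sign is a description and not support. With the bleomycin lists taken at an adjusted p under 0.05 in S135, chosen after seeing the data, the medians were -0.0043 for 141 higher and 0.22 for 70 lower genes. The 8-fold depleted group's median turned from -0.087 to 0.047 in limma voom and 0.16 without control mouse 208R. Intervals were widest in genes under 1 CPM; the part of depth in this was not tested.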
